A study of Sus scrofa with 10 samples.

Results

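The genes described here encode the proteins that cut introns out of pre-mRNA and the RNA-binding proteins that choose between alternative exons. They were followed in hypothalamus, a part of the brain that governs appetite and the release of pituitary hormones. Members were the gene rows whose symbol in the expression table names an SRSF, HNRNP, SF3A, SF3B, SNRP, U2AF or PRPF gene, one of the regulator families RBFOX, NOVA, CELF, PTBP, ELAVL or MBNL, or QKI, TRA2A or TRA2B, with an estimate in both groups. This gave 83 of 25009 rows, which carried 79 symbols. Of these, 82 reached a mean of at least 1 FPKM (fragments per kilobase of transcript and number of mapped fragments, a level corrected for transcript length) over both groups. The remaining row was a second SRSF2 row on chromosome X (ENSSSCG00000012212), listed at 0 in high pigs and at 0.014 FPKM in low pigs.

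RNA was sequenced from 10 Iberian x Landrace backcross pigs, 5 with high and 5 with low growth and fatness, and no other treatment is named in the labels. Sex and age were not given in the sources used here. The authors deposited 1 FPKM value per group with a lower and an upper bound, which is printed in parentheses below. No spread between animals can be had from these values, so no difference was tested, and "higher" below refers to the group values alone. The depth of each sample is unknown.

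Splicing is carried out by the spliceosome, which is built from small nuclear ribonucleoproteins (snRNPs) that recognise the splice sites and the branch point of each intron. SR proteins mostly promote the use of the exons they bind, whereas hnRNP proteins often repress them. Neurons have an alternative splicing programme of their own, run by proteins such as RBFOX, NOVA, PTBP2 and the neuronal members of the ELAVL and CELF families. QKI is best known in the brain for its role in oligodendrocytes and myelin.

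As a background for every comparison, a difference is log2(FPKM + 1) in high pigs less the same in low pigs, so positive means more in high pigs. The median over the 15281 rows at a mean of at least 1 FPKM was -0.10, and the middle 90% of rows lay between -0.56 and 0.35. Values were higher in low pigs in 67.7% of these rows and higher in high pigs in 32.3%. The direction depended on level: among the 3418 rows at a mean of at least 20 FPKM the median was -0.19 and 17.7% were higher in high pigs. Splicing genes were well expressed, with a median level of 23.1 FPKM against 7.40 FPKM over all rows, and 47 of the 82 were at 20 FPKM or more.

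Hypothalamic marker genes were detected. Of 15 such genes 13 were tested, SIM1 was below the filter and NKX2-1 was not matched to a row. The summed level of the tested rows was 1021 FPKM in high and 782 FPKM in low pigs. Of the 14 rows 10 were higher in high pigs and 4 in low pigs (NPY, POMC, AGRP and CRH). The 10 include both rows of GHRH, which had similar values. The vasopressin gene AVP made up the largest share of the sum, at 472 against 354 FPKM. Markers of several other cell types were higher in low pigs in every tested row, although 1 fibroblast row turned after median-of-ratios scaling. Summed levels were 113 against 281 FPKM for fibroblasts, mural cells and meninges, 160 against 391.8 FPKM for blood, 301 against 637 FPKM for the anterior pituitary and 333 against 476 FPKM for microglia (high against low). Endothelial markers were at 33.3 against 41.3 FPKM, oligodendrocyte precursor markers at 43.1 against 69.5 FPKM. Immediate early genes, which respond to neuronal activity and stress, were at 76.0 against 162 FPKM. Astrocyte markers, at 2345 against 2856 FPKM, and choroid plexus markers, at 317 against 473 FPKM, were higher in low pigs with 1 row each as an exception. GFAP is listed at 0 in both groups without a valid estimate. Whether the groups differed in tissue makeup, and what part that has in the values below, was not tested. Fewer cells of a type and less RNA per cell cannot be told apart in bulk tissue.

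Most splicing genes differed little between high and low pigs. The 82 rows had a median difference of -0.14, with 57 rows higher in low pigs and 25 in high pigs. Those 25 are 30.5%, against 32.3% of all rows. After median-of-ratios scaling 38 were higher in high pigs, against 50.1% of all rows, and after quantile normalization 42, against 49.3%. Both scalings brought the median of all rows close to 0. The bounds of the 2 groups overlapped for every one of the 82 rows, while 0.458% of all rows had bounds that did not overlap. A difference of at least 1.5-fold on the log2(FPKM + 1) scale was reached by 1 row, PRPF38A, against 6.33% of all rows, or 4.49% counting rows higher in low pigs.

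The direction varied with role, as the plot of differences by gene group shows. Proteins of the snRNPs and the hnRNPs were mostly higher in low pigs, as were 67.7% of all rows. These proteins stayed mostly higher there after both scalings, although 7 of 18 hnRNP rows turned out higher in high pigs after quantile normalization. Most rows of the SR proteins, of a mixed list of SR protein kinases, coactivators and other splicing proteins, and of the CELF and RBFOX families were higher in high pigs under every scaling. Of all rows 32.3% were higher in high pigs as deposited, 50.1% after median-of-ratios scaling and 49.3% after quantile normalization. None of these role differences was tested.

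**Figure D1:**
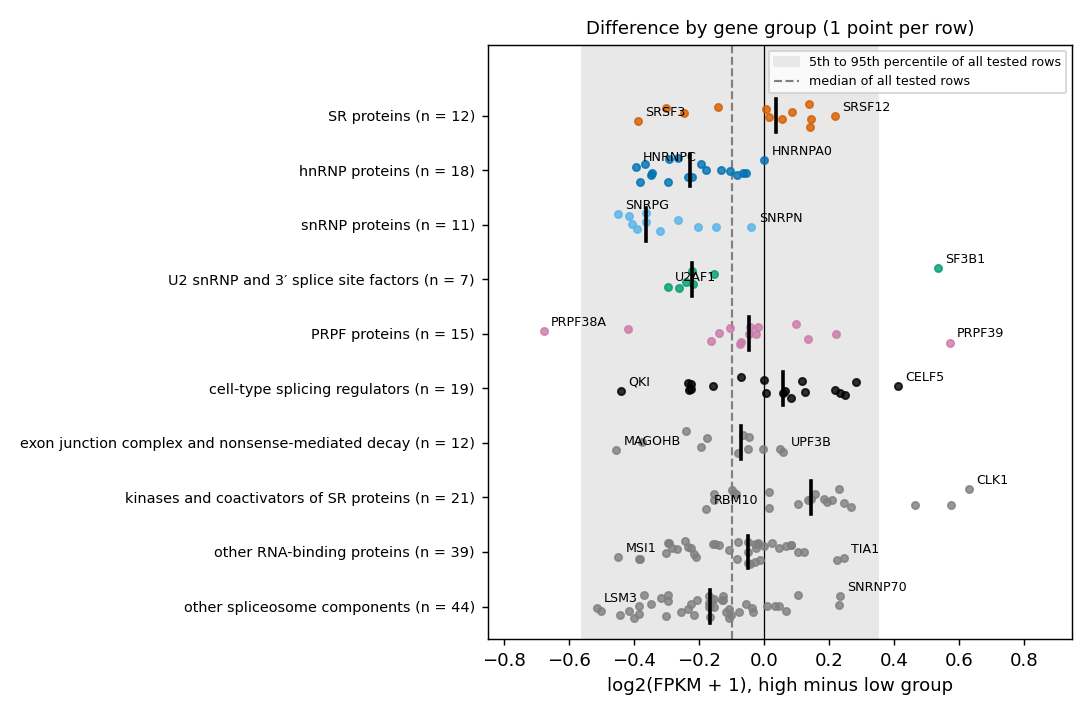
Difference between the groups in log2(FPKM + 1), high minus low (x axis), for the rows of the 6 role groups of splicing genes and 4 lists of related genes (y axis, n = rows tested). Each point is 1 gene row, thick bars are medians, and the shaded band and dashed line give the middle 90% and the median (-0.10) of all 15281 tested rows. PRPF39, SF3B1, CELF5, CLK1, LUC7L3 and CLK4 lie to the right of the band and PRPF38A to the left.

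The cell-type regulators are proteins that set tissue-specific splicing. QKI, an RNA-binding protein needed for myelination, was the most abundant of the 19, at 149 FPKM (107 to 190) in high and 202 FPKM (132 to 272) in low pigs. It alone made up 34.3% of the summed level of these regulators in high pigs and 41.2% in low pigs. Its difference was -0.44, lower than all but 8.65% of tested rows of any level, and the bounds overlapped. Among the 1273 rows of the highest level class, which includes QKI, the median was -0.24 and the lower quartile -0.38. QKI was thus only a little below the lower quartile of rows at its level. Both scalings kept its direction, at -0.32 and -0.21. Oligodendrocyte markers went the same way: all 11 tested rows were higher in low pigs, with a median difference of -0.71 and summed levels of 3161 against 4920 FPKM (high against low). Of these markers, myelin basic protein MBP was at 2017 FPKM in high and 2904 FPKM in low pigs. Whether the level of QKI followed the amount of oligodendrocyte RNA was not tested.

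All 6 CELF genes had the higher value in high pigs, and this held under both scalings. After median-of-ratios scaling 50.1% of all rows were higher in high pigs, and after quantile normalization 49.3%. Each CELF gene lay between 1 and 20 FPKM, where 36.5% of all rows were higher in high pigs as deposited. CELF proteins bind GU-rich elements and regulate splicing, translation and decay. CELF5 showed the largest difference of the 19 regulators toward the high group, at 10.0 FPKM (5.74 to 14.3) against 7.29 FPKM (3.40 to 11.2), a difference of 0.41. Of all tested rows 96.4% had a lower difference. Its locus is shared with 2 other rows, TLE2 among them, so the assignment of its reads is uncertain. CELF4, a mainly neuronal member, was at 14.0 FPKM (8.78 to 19.1) against 11.6 FPKM (6.28 to 16.9), a difference of 0.25. CELF6 was at 10.3 against 8.64 FPKM and CELF3, also neuronal, at 19.9 against 17 FPKM. CELF3 shares its locus with 1 other row. The broadly expressed members were close to equal: CELF1 was at 9.83 against 9.38 FPKM and CELF2 at 11.5 FPKM in both groups. Summed over the family, the level was 75.6 FPKM in high and 65.3 FPKM in low pigs.

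RBFOX proteins bind the sequence UGCAUG beside neuronal and muscle exons. RBFOX1 was at 8.58 FPKM (4.65 to 12.5) in high and 6.87 FPKM (3.11 to 10.6) in low pigs. RBFOX2, which is expressed in more tissues, was at 19.7 FPKM (13.3 to 26.2) against 18.0 FPKM (10.9 to 25). Both were higher in high pigs, by 0.28 and 0.13, with bounds that overlapped over most of their length. RBFOX2 was the more abundant of the pair, at 2.30 times the level of RBFOX1 in high pigs and 2.62 times in low pigs. From the extremes of the bounds the ratio could run from 1.06 to 5.64 in high and from 1.03 to 8.04 in low pigs. RBFOX3, which encodes the neuronal nuclear antigen NeuN, was not analysed here.

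NOVA1 and NOVA2 bind YCAY clusters in neuronal transcripts. NOVA1 was the regulator closest to equal, at 22.2 FPKM in both groups, with a difference of -0.00014. NOVA2 was at 8.13 FPKM (5.55 to 10.7) in high and 8.59 FPKM (5.4 to 11.8) in low pigs. Both turned positive after either scaling, by at most 0.15. NOVA1 was at 2.73 times the level of NOVA2 in high pigs and 2.59 times in low pigs. From the extremes of the bounds this ratio could run from 1.49 to 5.15 in high and from 1.24 to 5.52 in low pigs.

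The members of the PTBP pair pointed in opposite directions, and so did those of the ELAVL family. PTBP1, which represses neuronal exons in cells that are not neurons, was at 21.8 FPKM (15.6 to 28.1) in high and 25.7 FPKM (16.9 to 34.5) in low pigs. PTBP2, the neuronal paralogue, had 16.6 FPKM (11.4 to 21.8) against 15.6 FPKM (9.63 to 21.6). The PTBP1 to PTBP2 ratio, which no scaling by 1 factor per group can change, was therefore 1.32 in high pigs and 1.65 in low pigs. With each bound at its extreme the ratio could run from 0.714 to 2.47 and from 0.783 to 3.59, so the groups are not separated. ELAVL1, the general stabiliser of AU-rich transcripts, was at 23.5 FPKM (16.7 to 30.4) against 27.6 FPKM (18.2 to 37.1). Its neuronal relative ELAVL2 was at 17.4 FPKM (11.3 to 23.6) against 16.6 FPKM (9.86 to 23.3). ELAVL3, also neuronal, was on the side of ELAVL1, at 21.1 FPKM (14.5 to 27.7) against 23.6 FPKM (15.0 to 32.2).

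MBNL proteins compete with CELF proteins over many developmentally regulated exons. MBNL1 was at 19.9 FPKM (14.3 to 25.6) in high and 23.6 FPKM (15.6 to 31.6) in low pigs. MBNL2, the main brain member, had 26.5 FPKM (18.0 to 35.0) against 31.2 FPKM (19.7 to 42.8). Their differences were nearly the same, -0.23 each. MBNL3 was the least abundant regulator and the exception in direction, at 3.72 FPKM (2.07 to 5.38) against 3.35 FPKM (1.58 to 5.12).

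Across the 19 regulators the median difference was 0.061, and 11 were higher in high pigs, against 32.3% of all rows. The 7 at a mean of at least 20 FPKM (QKI, MBNL1, MBNL2, ELAVL1, ELAVL3, PTBP1 and NOVA1) were all higher in low pigs, though NOVA1 (-0.00014) turned after either scaling, with a median of -0.23, near the -0.19 of all rows at that level. Neuronal markers showed no common direction beside them: 5 of 11 tested rows were higher in high pigs, and their summed level was 1958 against 2048 FPKM.

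**Figure D2:**
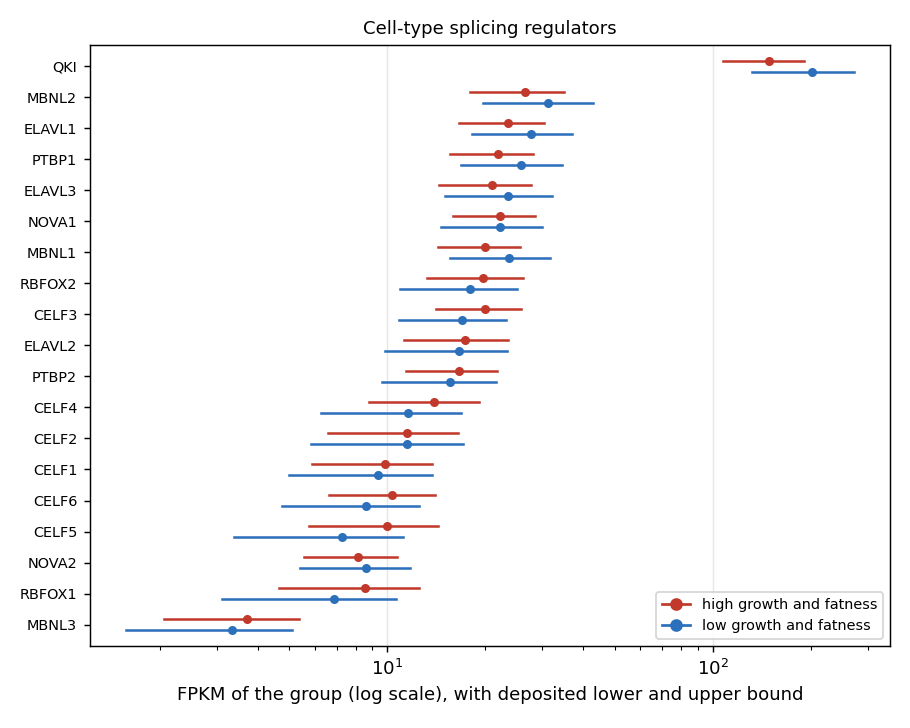
Levels of the 19 cell-type splicing regulators in FPKM (x axis, log scale), 1 gene per line, ordered by mean level. Points are the group values and lines run from the deposited lower to the upper bound, in red for the high and blue for the low group. QKI stands apart at 149 and 202 FPKM, all 6 CELF genes have the red point to the right of or level with the blue, and the bounds overlap in every line.

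SR proteins carry serine-arginine repeats and recruit the spliceosome to exons. Of the 12 tested rows 8 were higher in high pigs, against 32.3% of all rows, and 4 in low pigs, with a median of 0.037. Their mean difference had the opposite sign, -0.022, and their summed level was 516 FPKM in high and 536 FPKM in low pigs. Among the 10 at a mean of at least 20 FPKM, 6 were higher in high pigs, against 17.7% of all rows at that level. SRSF5 was the most abundant, at 113 FPKM (80.9 to 144) in high and 102 FPKM (67.5 to 137) in low pigs. SRSF2, a shuttling-deficient SR protein with a broad exonic role, was at 32.6 FPKM (23.4 to 41.8) against 29.5 FPKM (19.3 to 39.6) in its chromosome 12 row. TRA2A had 40.0 FPKM (28.6 to 51.4) against 36.1 FPKM (23.8 to 48.4) and SRSF6 at 45.3 against 42.6 FPKM. SRSF12, a member with repressive activity, had the largest difference toward the high group, 0.22, at 11.3 FPKM (6.56 to 16.1) against 9.60 FPKM (4.82 to 14.4). SRSF4, SRSF7 and SRSF10 differed by at most 0.057.

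The 4 SR proteins on the other side were SRSF3, SRSF9, TRA2B and SRSF1. SRSF3, the smallest of the family and a link between splicing and mRNA export, was at 61.7 FPKM (44.2 to 79.2) in high and 81.1 FPKM (53.6 to 109) in low pigs, a difference of -0.39. SRSF9 was at 39.8 FPKM (26.6 to 53.0) against 49.3 FPKM (30.8 to 67.8). TRA2B and its paralogue TRA2A pointed in opposite directions, with TRA2B at 47.7 FPKM (34.1 to 61.3) against 56.7 FPKM (37.5 to 75.9). SRSF1, the founding SR protein, was at 50.8 against 56.1 FPKM and turned to 0.043 after quantile normalization. Within each group, SRSF5 was at 1.83 times the level of SRSF3 in high pigs and 1.26 times in low pigs. With each bound at its extreme these ratios could run from 1.02 to 3.27 and from 0.622 to 2.56, so the groups are not separated. A further SR row listed under its older symbol SFRS11 (SRSF11 in the reference table, not counted among the members) was at 50.6 FPKM (36.5 to 64.8) against 42.0 FPKM (27.7 to 56.2).

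Proteins of the hnRNPs coat nascent transcripts and were, per length, the most abundant role group. Their 18 rows summed to 1579 FPKM in high and 1857 FPKM in low pigs, and 17 were higher in low pigs. The median difference of -0.23 lay below the -0.10 of all rows, but close to the -0.19 of all rows at 20 FPKM or more, where 16 of the 18 rows were. HNRNPA2B1, which also sorts RNA into dendrites, led with 378 FPKM (269 to 487) against 441 FPKM (276 to 605). Its row spans only 1063 bases on chromosome 15, and such short loci can be processed copies, so its value is uncertain. The row named HNRNPA1L2, HNRNPA1 in the reference table, followed at 210 FPKM (150 to 269) against 252 FPKM (160 to 345). HNRNPK had 138 FPKM (97.9 to 177) against 158 FPKM (99.4 to 216). These 3 rows held 45.9% of the summed level of the role group in high pigs and 45.8% in low pigs.

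The largest differences among the hnRNP rows were those of HNRNPC and HNRNPF. HNRNPC, which binds uridine tracts and keeps cryptic exons out of mRNA, was at 107 FPKM (76.8 to 136) in high and 140 FPKM (91.1 to 190) in low pigs, a difference of -0.39. HNRNPF, which binds G-rich tracts, was at 69.3 FPKM (49.9 to 88.7) against 90.5 FPKM (59.1 to 122), a difference of -0.38. Its relative HNRNPH1 was closer to equal, at 109 FPKM (77.3 to 141) against 114 FPKM (73.6 to 153). HNRNPA0 was nearly equal, at 20.6 FPKM in both. The 2 HNRNPAB rows were the lowest, at 10.7 against 13.3 FPKM on chromosome 2 and 3.93 against 4.22 FPKM on chromosome 7. After median-of-ratios scaling 5 of the 18 rows, and after quantile normalization 7, were higher in high pigs, against 50.1% and 49.3% of all rows. HNRNPC and HNRNPF stayed higher in low pigs under both, at -0.16 or lower.

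**Figure D3:**
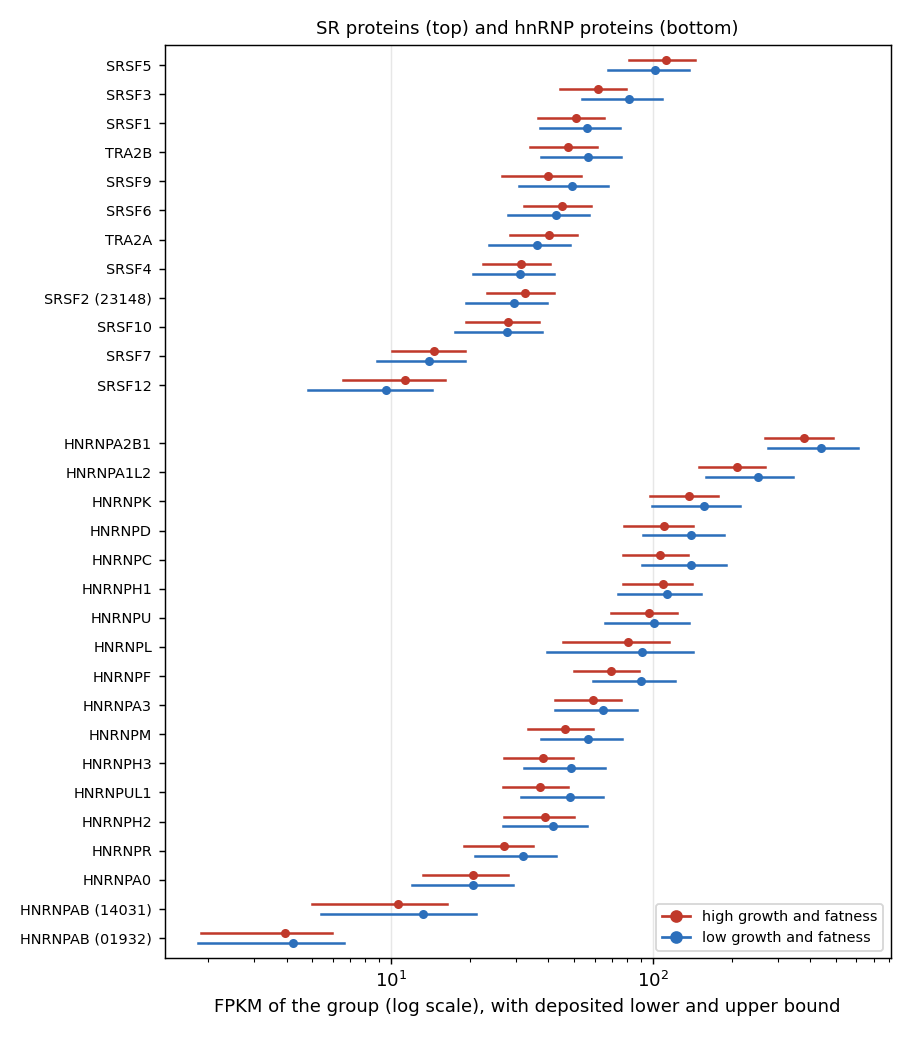
Levels of the 12 SR protein rows (top) and 18 hnRNP rows (bottom) in FPKM (x axis, log scale), with group values as points and deposited bounds as lines, red for the high and blue for the low group. Digits in parentheses are the end of the identifier where a symbol has more than 1 row. In SR proteins the red point is on the right in 8 of 12 lines, in hnRNP proteins in 1 of 18, HNRNPA0, where the points coincide.

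All 11 snRNP protein rows were higher in low pigs, against 67.7% of all rows. Their median difference of -0.36 was the lowest of the 6 role groups, against -0.10 over all rows. The 7 rows at 20 FPKM or more had a median of -0.32. At that level the median of all rows was -0.19, and 17.7% were higher in high pigs. The 7 Sm proteins, which form the ring around the spliceosomal RNAs, differed by -0.45 to -0.15. SNRPD3 was at 61.1 FPKM (43.3 to 79.0) in high and 76.5 FPKM (50.2 to 103) in low pigs. SNRPE was at 35.9 FPKM (22.7 to 49.0) against 48.2 FPKM (28.8 to 67.5), a difference of -0.42. SNRPG had the largest difference, -0.45, but the widest bounds of all members, at 3.39 FPKM (0.416 to 6.36) against 4.99 FPKM (0.194 to 9.78), and it shares its locus with PCYOX1. The U1 and U2 snRNP proteins SNRPA, SNRPA1 and SNRPC were on the same side, SNRPA being the least different at 7.89 FPKM (4.79 to 11.0) against 9.24 FPKM (5.15 to 13.3). Of all rows 50.1% were higher in high pigs after median-of-ratios scaling and 49.3% after quantile normalization. The first scaling left 10 of the 11 snRNP rows higher in low pigs, and the second left 9. SNRPD2 was among the 2 that turned, at 36.2 FPKM (19.9 to 52.5) against 40.2 FPKM (19.99 to 60.5) as deposited and a difference of 0.0081 after quantile normalization.

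SNRPN, the brain-enriched, imprinted paralogue of SNRPB, was the exception in size. It was the most abundant snRNP gene, at 142 FPKM (101 to 183) in high and 146 FPKM (92.6 to 199) in low pigs, and differed by -0.038. SNRPB itself had 22.4 FPKM (14.6 to 30.2) against 29.1 FPKM (17.7 to 40.5). The SNRPN to SNRPB ratio was 6.32 in high pigs, with extremes of 3.32 and 12.5 from the bounds, and 5.0 in low pigs, with extremes of 2.29 and 11.2. After median-of-ratios scaling SNRPN was the 1 snRNP gene higher in high pigs.

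SF3A and SF3B are the parts of the U2 snRNP that grip the branch point. SF3B1, the largest subunit and the one that contacts the branch point adenosine, was at 81.7 FPKM (58.4 to 105) in high and 56 FPKM (36.5 to 75.5) in low pigs. Each group value lay outside the bounds of the other group, although the bounds themselves overlapped. This criterion was added with the values already in view. It was met by 2 of the 82 splicing rows, both higher in high pigs, against 2.51% of all rows, or 0.661% counting that direction alone. The difference of 0.54 was larger than that of 97.7% of tested rows, and grew to 0.65 after median-of-ratios scaling and to 0.73 after quantile normalization. SF3B1 lies on chromosome 15 of build Sscrofa10.2 (112450395 to 112478073, as the file gives it), where no other row shares its locus.

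The other 6 rows of the U2 group pointed the opposite way from SF3B1. SF3B2 was at 41.3 FPKM (29.8 to 52.9) against 48.9 FPKM (32.1 to 65.8), SF3B4 at 23.0 against 26.9 FPKM and SF3A3 at 17.7 against 20.8 FPKM. SF3A1 was at 17.1 FPKM (11.0 to 23.2) against 20.7 FPKM (12.4 to 29.1), on a locus shared with CCDC157 and RNF215. SF3B3 was at 14.7 FPKM (9.89 to 19.4) against 16.4 FPKM (10.3 to 22.6). U2AF1, which reads the AG at the end of the intron, was at 12 FPKM (7.22 to 16.7) against 14.9 FPKM (8.38 to 21.5), in a row that a similar paralogue makes uncertain. A second, unnamed row that the reference table calls SF3B3, not counted among the members, was at 17.1 against 16.6 FPKM. Another unnamed row, SF3B6 in that table and also not counted, was at 27.2 against 34.5 FPKM. The 6 member rows differed by -0.30 to -0.15 and were higher in low pigs under both scalings as well. SF3B1 was thus 1.98 times SF3B2 in high pigs (1.10 to 3.52 from the extremes of the bounds) and 1.14 times in low pigs (0.555 to 2.35).

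PRPF proteins serve at different steps of the splicing cycle and had the widest spread of differences. PRPF39, a component of the U1 snRNP that helps it find the 5′ splice site, was at 12.7 FPKM (8.75 to 16.6) in high and 8.20 FPKM (4.92 to 11.5) in low pigs. It was the other member whose group values each lay outside the bounds of the opposite group. Its difference of 0.57 was the largest of all 82 rows and larger than that of 98.1% of tested rows. It passed 1.5-fold after either scaling, at 0.68 and 0.66. PRPF39 lies on chromosome 1 (195153591 to 195185563), and the locus holds 1 small nucleolar RNA row, SNORD127, listed at 0 in both groups.

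PRPF38A, which joins the spliceosome before activation, lay at the opposite end. It was at 23.8 FPKM (12.5 to 35.1) in high and 38.7 FPKM (19.5 to 57.9) in low pigs, a difference of -0.68, lower than all but 3.40% of tested rows. After median-of-ratios scaling (-0.56) and quantile normalization (-0.52) it no longer reached 1.5-fold. Its row is uncertain, because the reference table gives the symbol PRPF38A to a second, unnamed row on chromosome 6, which was at 13.2 FPKM (7.25 to 19.1) against 16.0 FPKM (8.21 to 23.8). PRPF18, a factor of the second catalytic step, also has 2 neighbouring rows on chromosome 10. The stronger was at 18.0 FPKM (10.4 to 25.6) against 24.3 FPKM (13.4 to 35.3), a difference of -0.42, and the weaker at 5.20 against 5.83 FPKM, a difference of -0.14.

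The other PRPF rows varied less. PRPF19, the ubiquitin ligase that activates the spliceosome, was the most abundant, at 45.8 FPKM (33 to 58.6) in high and 49.2 FPKM (32.3 to 66.1) in low pigs. PRPF8, the scaffold of the catalytic centre, was at 29.9 FPKM (21.5 to 38.2) against 27.8 FPKM (18.2 to 37.5). PRPF4B, a kinase of the tri-snRNP, was at 10.1 FPKM (6.59 to 13.6) against 8.53 FPKM (4.94 to 12.1), a difference of 0.22. PRPF3, a U4/U6 protein, had a main row at 7.65 against 7.76 FPKM and a row on an unplaced scaffold at 1.13 against 1.23 FPKM. PRPF6, PRPF31, PRPF4 and PRPF38B were between -0.16 and -0.042, and PRPF40B was at 0.14. Of the 15 rows 11 were higher in low pigs as deposited, but 10 were higher in high pigs after either scaling, so the direction of this role group depends on the scaling. Of all rows, 32.3% were higher in high pigs as deposited, 50.1% after median-of-ratios scaling and 49.3% after quantile normalization.

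**Figure D4:**
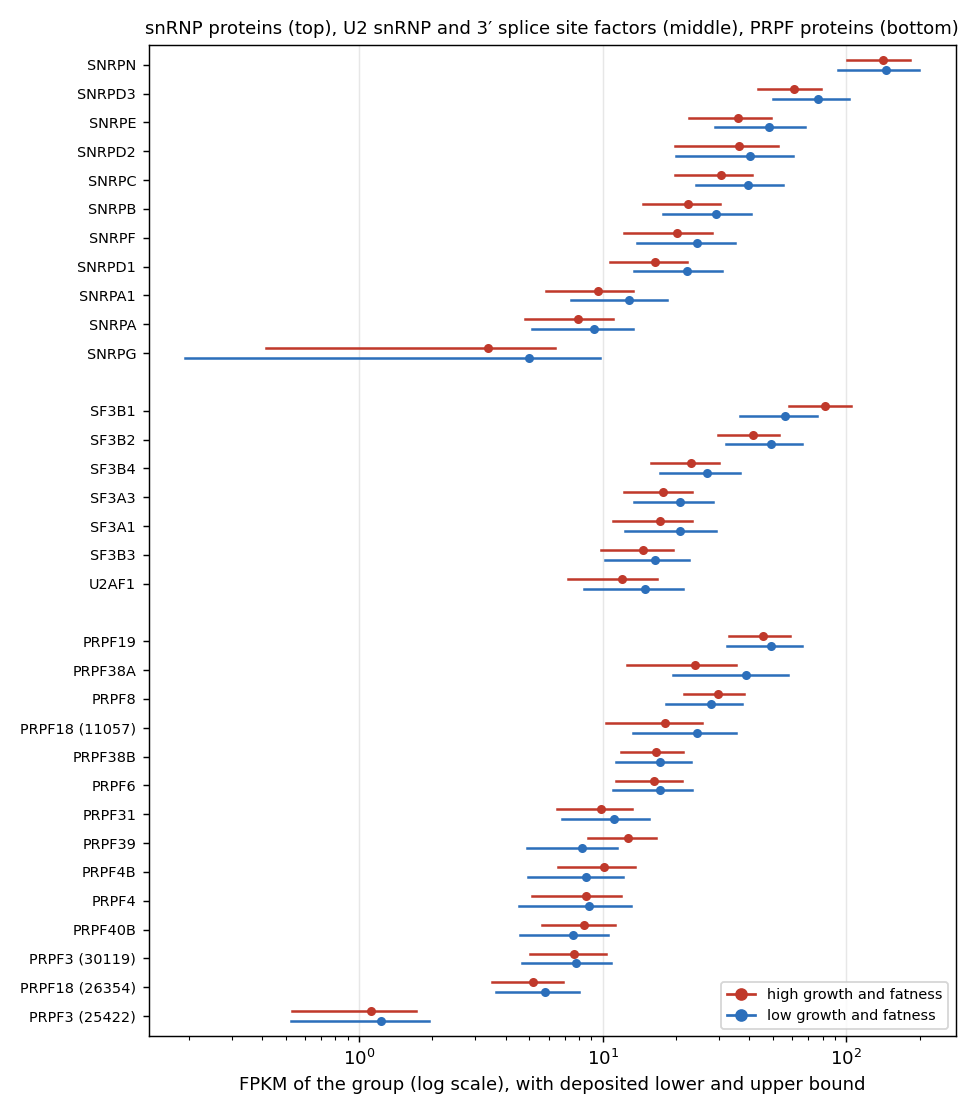
Levels of 11 snRNP protein rows (top), 7 rows of the U2 snRNP and 3′ splice site (middle) and 14 of the 15 PRPF rows (bottom) in FPKM (x axis, log scale), with group values as points and deposited bounds as lines, red for the high and blue for the low group. Every snRNP line has the blue point on the right. SF3B1 and PRPF39 have the red point on the right by the widest margins, and PRPF38A the blue point.

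Level and direction were linked among the members, as they were in the table as a whole. Level also moved with role, since 16 of 18 hnRNP rows but 7 of 19 regulators were at 20 FPKM or more. Across the 82 rows Spearman's rho between mean level and difference was -0.37, and across all 15281 rows it was -0.24. This is a description across genes that share the same 2 group values. Of the 47 members at 20 FPKM or more, 9 (19.1%) were higher in high pigs, against 17.7% of rows at that level. Of the 35 members between 1 and 20 FPKM, 16 (45.7%) were higher in high pigs, against 36.5% of rows at that level. Beyond the middle 90% of all rows lay 3 members on the high side, PRPF39, SF3B1 and CELF5, and 1 on the low side, PRPF38A.

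**Figure D5:**
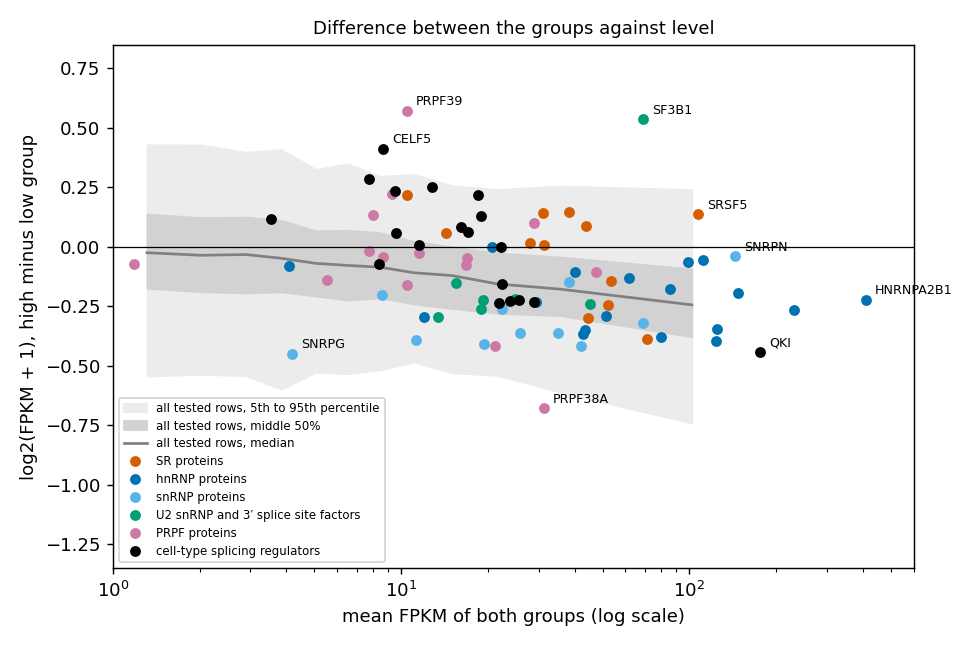
Difference in log2(FPKM + 1), high minus low (y axis), against the mean FPKM of both groups (x axis, log scale) for the 82 splicing rows, coloured by role. Grey bands show the middle 90% and middle 50% of all tested rows in 12 level classes and the grey line their median, which falls from -0.024 in the lowest class to -0.24 in the highest. SF3B1 lies far above the band at its level, and most hnRNP and snRNP points lie near or below the median line.

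Other genes of the pathway were taken from 4 lists. A list of kinases and coactivators of SR proteins, which also holds LUC7L and RBM proteins, leaned to the high group. As deposited 15 of 21 rows had the higher value there, with a median of 0.15, against 32.3% of all rows. After median-of-ratios scaling 18 did, against 50.1% of all rows, and after quantile normalization 19, against 49.3%. Of the 10 at 20 FPKM or more, 7 were higher in high pigs, against 17.7% of rows at that level. CLK1, a kinase that phosphorylates SR proteins and releases them from nuclear speckles, was at 50.4 FPKM (36.1 to 64.8) in high and 32.2 FPKM (21.0 to 43.5) in low pigs. Its difference of 0.63 was the 1 of 21 in this list past 1.5-fold, against 6.33% of all rows. LUC7L3, a U1 snRNP-associated protein, stood at 56.3 FPKM (40.5 to 72.2) against 37.5 FPKM (24.5 to 50.4), a difference of 0.58. For CLK1 and LUC7L3, 2 of the 21 rows, each group value lay outside the bounds of the other group, as for SF3B1 and PRPF39. Of all rows 2.51% met this criterion, or 0.661% counting those higher in high pigs. CLK4 was at 10.0 FPKM (6.93 to 13.1) against 6.99 FPKM (4.31 to 9.68). CLK2 was at 8.06 against 7.96 FPKM and CLK3 at 10.23 against 11.0 FPKM, and RBM10 was lowest in the list at -0.18. Among the other kinases SRPK2 was at 32.5 against 36.3 FPKM and DYRK1A at 13.0 against 14.6 FPKM. SRPK1 was at 4.62 against 4.56 FPKM and SRPK3 at 1.74 against 1.41 FPKM. The kinases thus did not share a direction.

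Further spliceosome components leaned the same way as the snRNP proteins, but less. Of 44 rows 37 were higher in low pigs, against 67.7% of all rows. The median was -0.16, against -0.10 over all rows and -0.36 for the snRNP proteins. Of the 44, 13 were higher in high pigs once scaled by median of ratios (median -0.054) and after quantile normalization 15 (median -0.061). Of all rows 50.1% and 49.3% were higher in high pigs after these scalings. LSM3, a subunit of the ring that binds U6 RNA, was at 20.3 FPKM (12.7 to 27.9) in high and 29.4 FPKM (17.5 to 41.3) in low pigs. All 6 tested LSM genes of that ring were higher in low pigs, by -0.51 to -0.11, and stayed so under both scalings. SNRNP70, the U1 protein that contacts SR proteins, had the largest difference toward the high group, 0.24, at 51.3 FPKM (36.5 to 66.0) against 43.4 FPKM (28.3 to 58.5). No row of this list had bounds apart or reached 1.5-fold, against 0.458% and 6.33% of all rows.

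The remaining lists had medians closer to that of all rows. Among 39 rows of other RNA-binding proteins 10 were higher in high pigs, against 32.3% of all rows, with a median of -0.050. MSI1, an RNA-binding protein of neural progenitors, had 5.53 FPKM (1.01 to 10.1) against 7.91 FPKM (1.14 to 14.7), and TIA1, a stress granule protein and splicing factor, at 14.4 FPKM (10.1 to 18.7) against 12 FPKM (7.70 to 16.3). Of 12 rows of the exon junction complex and nonsense-mediated decay, which removes transcripts with premature stops, 2 were higher in high pigs, with a median of -0.071. MAGOHB, a core subunit of the junction complex, was lowest at 9.23 FPKM (4.85 to 13.6) against 13.0 FPKM (6.53 to 19.5), and UPF3B was highest at 12.7 against 12.2 FPKM. Bounds overlapped and 1.5-fold was not reached in any row of either list. Of all rows 0.458% had bounds apart and 6.33% reached 1.5-fold.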

How the data were processed

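Per the file headers, the authors deposited for each gene row a group FPKM, its bounds and a status flag. TopHat2 2.0.5, Bowtie2, Cufflinks 2.0.2 and build Sscrofa10.2 are listed in the submitters' processing notes, with no settings. At what confidence the bounds were set is not given in the sources used here. Per-animal values and read counts were not analysed here, so nothing could be tested across animals, and depth is unknown.

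Rows without a valid status in either group (58) were left out, and rows at a mean of at least 1 FPKM were the background. Differences are log2(FPKM + 1), which understates changes of low genes. Python 3.11.15, numpy 2.4.6 and pandas 2.3.3 were used, and the code was tested on simulated data. Members, role groups, lists and markers were chosen with earlier results of these data known. The rule for naming genes took all cell-type regulators, the 3 highest and 2 lowest members of each role group by level and its 2 largest differences in each direction, members at least 1.5-fold apart or with bounds apart, and the extremes of each list. Other members, CLK2, CLK3, CLK4, SRPK1, SRPK2, SRPK3, DYRK1A, LUC7L3, single marker genes and rows named by the reference table were named after their values were seen.

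Half-widths of the bounds had a median of 31.1% of the value for high pigs and 37.0% for low pigs over the 82 rows. Of the 83 identifiers 50 carry the same symbol in the reference table, 30 have no entry and 3 differ (HNRNPA1L2, PRPF4B, and PRPF38B, which is STXBP3 there). In all, 13 members share their locus with another row, 10 lie on unplaced scaffolds and 4 symbols have 2 rows. CELF3, HNRNPK, SRSF2 on chromosome 12 and both HNRNPAB rows are among those sharing a locus. HNRNPA1 and HNRNPA2B1 have many near-identical copies in mammalian genomes, so their values are uncertain. Of the members, 1 member is counted but not reported by name here.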

Additional observations from a re-analysis of the deposited data

How the results depend on the processing

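Settings compared were pseudocounts of 0.1 and 0.5, median-of-ratios scaling, quantile normalization, no filter, means of at least 5 and 20 FPKM, 1 row per symbol, the mean of a list and rows on loci of their own. The 20 FPKM limit, the rows on loci of their own and the criterion of values outside the opposite bounds were chosen after seeing the data. Of 105 medians recomputed, 94 kept their direction and moved by less than the SD of the members. After quantile normalization the median of all members was 0.0061, that of hnRNP proteins -0.029 and that of snRNP proteins -0.20. After median-of-ratios scaling and quantile normalization the medians turned to 0.063 and 0.068 for PRPF proteins, to 0.055 and 0.071 for other RNA-binding proteins and to 0.038 and 0.024 for the exon junction list. The mean of the SR proteins was -0.022, and the median of the regulators at 20 FPKM or more was -0.23, over 7 rows. Both scalings moved the median of all rows from -0.10 to about 0.

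Bounds were apart for 0 members under every setting run, and the z value from the bounds called 0, against 0.209% of all rows, while 2 members had values outside the opposite bounds. The 1 member past 1.5-fold became 2 with either pseudocount (PRPF38A and PRPF39), against 9.42% and 7.74% of all rows with 0.1 and 0.5, and 2 with either scaling (PRPF39 and SF3B1), against 5.94% (median-of-ratios) and 5.78% (quantile). Those 2 are 2.44% of the 82 rows. Of 56 rows named by the rule, 46 kept their sign under both pseudocounts and both scalings. No paired analysis was possible because the deposited values are of groups, not animals. Leaving out single animals was not run either.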
